A study of Homo sapiens with 15 samples.

Results

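The hexosamine and O-GlcNAc pathway was described through 7 listed genes, chosen by name: GFPT1, GFPT2, GNPNAT1, PGM3, UAP1, OGT and OGA, the last also written MGEA5. Probe sets count where the annotation of the arrays assigns them to 1 gene, and this found 4 of the 7, namely GFPT1, UAP1, OGT and OGA, among 12149 genes. GFPT2, GNPNAT1 and PGM3 are not analysed here. All 4 measured members were bright enough to be among the 9111 genes tested.

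The hexosamine pathway is a side branch of glycolysis. It takes fructose-6-phosphate, adds nitrogen from glutamine and then acetyl and uridine groups, and ends in UDP-GlcNAc, the donor sugar for N-glycans, hyaluronan, sialic acids and the O-linked GlcNAc of nuclear and cytosolic proteins. GFPT1 and GFPT2 are the glutamine-using enzymes that open the branch, GNPNAT1 acetylates the amino sugar, PGM3 moves its phosphate and UAP1 joins it to UTP. OGT places single GlcNAc sugars on serines and threonines of proteins, and OGA takes them off.

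Expression was measured in HMT3522 breast epithelial cells, a human cell line series, cultured in a 3-dimensional laminin-rich extracellular matrix. HMT3522 S1 (3 samples) is labelled normal, and HMT3522 T4 (3 samples) is labelled malignant and is known to derive from it. T4R stands here for 9 samples of T4 cells labelled as reverted, each given another agent, so every agent has 1 sample. The agents are GM6001, an inhibitor of matrix metalloproteases (MMPs), an inhibitor labelled MMPs and ADAMs, TNF protease inhibitor-2, the MAPK pathway inhibitor PD98059, the PI3K inhibitor LY294002, dominant-negative Rap1, the EGFR inhibitors Tyrphostin AG 1478 and mAb225, and AIIB2, an antibody against beta1-integrin. No label used here gives a dose or a time, or tells which samples had the vehicle control that the design mentions. S1 and T4 are single cell lines. The labels do not tie replicate samples to separate cultures, and the p-values therefore cover the spread among the arrayed samples alone, possibly a technical one.

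GFPT1 and UAP1, the measured genes of UDP-GlcNAc synthesis, are the members whose levels moved most, and the 300 bases around their starts are shown to let their letters be compared. The windows run from 250 bases before to 50 after the outermost start that RefSeq lists (build GRCh38.p14), at chr2:69387178-69387477 on the minus strand for GFPT1 and at chr1:162561281-162561580 on the plus strand for UAP1, for which 3 starts are listed. Capitals mark GGGCGG on either strand, the core of GC boxes, and TGACGTG, a motif of stress-response factors.
GFPT1: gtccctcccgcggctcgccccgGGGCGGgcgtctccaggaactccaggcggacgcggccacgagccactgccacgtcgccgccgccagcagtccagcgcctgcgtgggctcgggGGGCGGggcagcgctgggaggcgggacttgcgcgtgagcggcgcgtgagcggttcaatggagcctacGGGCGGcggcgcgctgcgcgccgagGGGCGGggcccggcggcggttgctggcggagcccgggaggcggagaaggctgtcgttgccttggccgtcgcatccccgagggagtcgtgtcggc
UAP1: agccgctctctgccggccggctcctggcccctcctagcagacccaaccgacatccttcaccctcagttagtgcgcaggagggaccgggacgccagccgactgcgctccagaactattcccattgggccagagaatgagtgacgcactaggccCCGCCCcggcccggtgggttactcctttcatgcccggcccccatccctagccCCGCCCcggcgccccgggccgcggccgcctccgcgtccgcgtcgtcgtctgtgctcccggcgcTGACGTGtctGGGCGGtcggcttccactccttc
Both windows are rich in G and C, with 78% for GFPT1 and 70.67% for UAP1 against a median of 58.67% over all windows. GGGCGG occurred 4 times at GFPT1 and 3 times at UAP1, and 45% of 35116 RefSeq windows of this length hold it. TGACGTG occurred once, at UAP1, 17 bases after the start, and 1.97% of windows hold it. The endoplasmic reticulum stress element (CCAAT followed, after 9 bases of any kind, by CCACG), and the letters TGATGNAA as well as CACGTG and also TGANTCA, were searched on both strands and were in neither window. Of all windows, 0.0769% hold the first, 3.62% the second, 7.26% the third and 7.71% the last. In this window OGT held GGGCGG once and OGA 3 times, and neither held any of the other motifs. A match or its absence describes letters only and shows no bound factor.

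The values are deposited log2 expression in 2 tables, one for each array type, with 8 samples in the first (S1 samples 1 and 2, the T4 samples, GM6001, MMPs and ADAMs, LY294002) and 7 in the second. Differences are log2 values with standard errors from a limma fit over all 15 samples that has the array type as a term. Genes at least 2-fold apart numbered 16 between S1 samples 1 and 2 and 6 between T4 samples 1 and 2. They numbered 553 and 648 between S1 sample 3 and the other S1 samples. S1 sample 3 is also the only S1 sample on the second array type, so sample and array type cannot be told apart. For T4 sample 3, on the same array type as the other T4 samples, they numbered 356 and 426. Of 7 measured epithelial markers, 6 were above the median of every sample, and of 10 leukocyte, endothelial and fibroblast markers 7 were below it in every sample. The summed level of the second list, as a mean over its genes, was 7.04 to 7.09 in S1, 7.20 to 7.24 in T4 and 7.15 to 7.49 in T4R. Of those markers CD14 passed the test in T4 against S1, at 0.97 ± 0.26 (adjusted p = 0.0132), and in T4R against S1 CD14, at 0.77 ± 0.21 (adjusted p = 0.0183), and COL1A1, at 1.46 ± 0.43 (adjusted p = 0.0237). None passed in T4R against T4. Only 4 of the 10 (CD14, DCN, COL1A1 and PDGFRB) were tested, as the others were among the dim genes left out. The highest value in any sample was 9.57 for DCN and 10.67 for COL1A1. Of the epithelial markers KRT18 (0.98 ± 0.21) and LAMB3 (1.36 ± 0.31) were higher in T4 than in S1, and in T4R against T4 both were lower (-1.07 ± 0.19 and -2.09 ± 0.29) and EPCAM higher (0.93 ± 0.24, a call that ended without T4 sample 1, T4 sample 3 or LY294002, at adjusted p = 0.0826, 0.0512 and 0.0536). The part of these markers in the members' differences was not tested. In bulk RNA, fewer cells of a type and less RNA per cell cannot be told apart.

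In T4 cells both measured genes of UDP-GlcNAc synthesis were higher than in S1, and the gene for the O-GlcNAc-removing enzyme was lower. UAP1 was 3.90-fold higher and GFPT1 1.90-fold higher, OGA was 1.67-fold lower, and OGT did not pass the test. Of the 4 members, 2 were called higher and 1 lower, where 14.6% and 12.3% of all tested genes were, or 26.9% in either direction. The median difference over all genes tested was 0.0072.

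GFPT1, the rate-limiting first enzyme of the branch, stood at 7.84, 7.95 and 8.16 in S1 samples 1 to 3 and at 9.11, 9.01 and 8.48 in T4 samples 1 to 3. All T4 samples lay above all S1 samples, with T4 sample 3 the closest to S1. In limma the difference was 0.92 ± 0.20 (95% confidence interval 0.49 to 1.35, adjusted p = 0.00409). It was 0.79 (adjusted p = 0.0581) when samples 1 and 2 of each line, which were nearly alike, were averaged, so that the call then ended.

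UAP1, which makes UDP-GlcNAc, stood at 9.63, 9.91 and 9.55 in S1 and at 11.71, 11.67 and 11.99 in T4. The lines were far apart compared with the spread within either. The difference was 1.96 ± 0.18 (95% confidence interval 1.57 to 2.36, adjusted p = 8.73e-06), and it kept its call in all 31 alternatives, at 1.85 to 2.09. Groups that do not overlap in the deposited values were found with T4 above S1 in 19.7% of tested genes and below it in 17.5%.

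OGT stood at 10.03, 10.50 and 10.66 in S1 and at 9.84, 9.86 and 9.75 in T4. Every T4 sample lay below every S1 sample, but S1 sample 1 was close to T4. The difference of -0.38 ± 0.28 did not pass (95% confidence interval -0.99 to 0.22, adjusted p = 0.354). It was -0.21 without S1 sample 2 (adjusted p = 0.717) and -0.58 without the array-type term (adjusted p = 0.242). Within the first array type alone it was -0.45 ± 0.13 and passed (adjusted p = 0.0399).

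OGA, the enzyme that removes O-GlcNAc, stood at 10.34, 10.30 and 10.61 in S1 and at 9.66, 9.76 and 9.22 in T4. All T4 samples were below all S1 samples. The difference was -0.74 ± 0.19 (95% confidence interval -1.15 to -0.33, adjusted p = 0.011). With the mean of all its probe sets in place of the brightest it was -0.42 (adjusted p = 0.034).

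**Figure D1:**
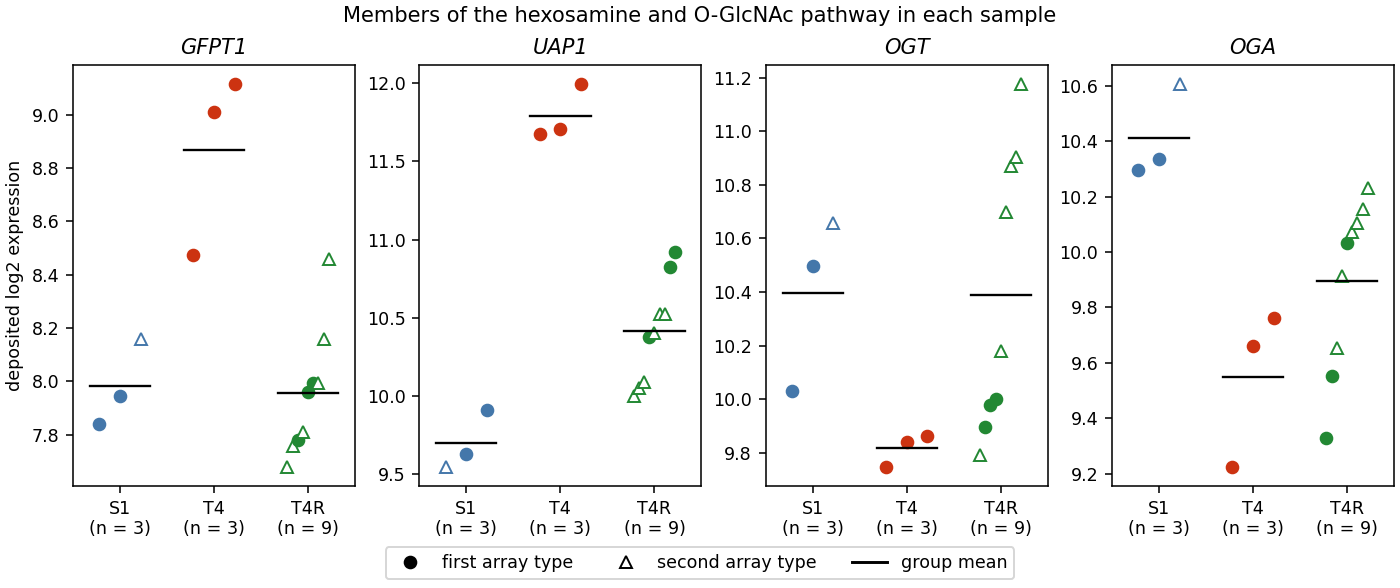
Deposited log2 expression of the 4 measured members (1 panel each) in S1, T4 and T4R samples, with filled circles for the first array type, open triangles for the second and a bar for the group mean. UAP1 in T4 (11.67 to 11.99) lies above every S1 and T4R sample, and GFPT1 in T4R (7.68 to 8.46) overlaps S1. OGA in T4R (9.33 to 10.23) stays below S1 on the probe set used.

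The reverted cells were set against the T4 samples, which carry no agent in their labels, to ask what the agents as a group changed. GFPT1 was 1.98-fold lower and UAP1 2.17-fold lower in T4R, whereas OGT and OGA did not pass. Thus 2 of 4 members were called lower and none higher, where 8.44% of all tested genes were lower and 6.46% higher (14.9% in all). This comparison and the one with S1 share the T4 samples.

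Across the 9 agents GFPT1 ran from 7.68 through a median of 7.96 to 8.46. Even the highest, dominant-negative Rap1, was just under the lowest T4 sample at 8.48. The difference was -0.99 ± 0.19 (95% confidence interval -1.39 to -0.59, adjusted p = 0.00359).

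UAP1 ran from 9.999 through a median of 10.41 to 10.92 in T4R, between the lines and overlapping neither. T4R was below T4 by a log2 difference of -1.12 ± 0.17 (95% confidence interval -1.49 to -0.75, adjusted p = 0.000845). In the deposited values T4R lay wholly below T4 in 8.41% of tested genes.

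OGT in T4R ran from 9.79 through a median of 10.18 to 11.17, the widest range of the 4 members, and overlapped both lines. Its difference from T4 was 0.18 ± 0.26 (95% confidence interval -0.38 to 0.75, adjusted p = 0.702). OGA ran from 9.33 through a median of 10.03 to 10.23 and overlapped T4, at a difference of 0.10 ± 0.18 (95% confidence interval -0.28 to 0.49, adjusted p = 0.751). Without the array-type term these differences were 0.57 for OGT (adjusted p = 0.174) and 0.35 for OGA (adjusted p = 0.211). For OGA the sign turned in some settings, among them without T4 sample 3 (-0.058) and without LY294002 (-0.040).

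Setting T4R against S1 shows which members still differed from the nonmalignant line. UAP1 stayed 1.80-fold higher (0.85 ± 0.15, 95% confidence interval 0.52 to 1.17, adjusted p = 0.00146) and OGA 1.56-fold lower (-0.64 ± 0.16, 95% confidence interval -0.98 to -0.30, adjusted p = 0.0101). So 1 of 4 members was called in each direction, where 11.8% of all tested genes were called higher and 11.4% lower (23.2% in all). GFPT1 did not pass at -0.065 ± 0.17, with a confidence interval of -0.42 to 0.29 (adjusted p = 0.827). Nor did OGT, at -0.20 ± 0.23 (95% confidence interval -0.71 to 0.30, adjusted p = 0.595).

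On the probe sets used, all 9 T4R values of UAP1 lay above the S1 range and all 9 of OGA below it in the deposited data. T4R lay wholly above S1 in 8.13% of tested genes and wholly below in 7.46%. Both members kept to this inside the second array type, which has 1 S1 sample. There UAP1 was 9.55 in S1 and 9.999 to 10.52 over 6 agents, and OGA was 10.61 in S1 and 9.65 to 10.23. The call of OGA ended without the array-type term (-0.52, adjusted p = 0.0558), within the first array type (-0.68, adjusted p = 0.0754) and after quantile normalization across both tables (-0.49, adjusted p = 0.0917). UAP1 kept its call in each of these.

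Of all 9111 genes tested, 837 were called higher in the second table than in the first and 797 lower. The fitted difference between the second and the first table passed for no member. It was 0.58 for OGT (adjusted p = 0.0649), 0.36 for OGA (adjusted p = 0.0848), -0.39 for UAP1 (adjusted p = 0.0585) and 0.11 for GFPT1 (adjusted p = 0.609). No T4 sample lies in the second table. Within the first table alone the T4R to T4 differences were -0.95 for GFPT1 (adjusted p = 0.01) and -1.08 for UAP1 (adjusted p = 0.00653), both close to the values from all samples.

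With 1 sample per agent, single agents are described without a test, as log2 differences from the T4 mean after the array-type term was removed. GFPT1 and UAP1 were below every T4 sample with all 9 agents, as were 9.77% of tested genes. GFPT1 ran from -1.30 with PD98059 to -0.52 with dominant-negative Rap1, with a median of -0.99. On the probe set used, PD98059, Tyrphostin AG 1478 (-1.22), mAb225 (-1.17) and MMPs and ADAMs (-1.08) took it below all S1 samples. Dominant-negative Rap1 alone left it above them. On the other GFPT1 probe set, 202721_s_at, these agents were again below all S1 samples, the lowest of which was at 7.81. So were GM6001 (7.71), TNF protease inhibitor-2 (7.76) and LY294002 (7.69) there, and dominant-negative Rap1 (8.18) alone was again above S1.

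After removal of the same term, UAP1 was lowest with LY294002 (-1.41), PD98059 (-1.40), Tyrphostin AG 1478 (-1.35) and mAb225 (-1.31). With AIIB2 (-0.996), GM6001 (-0.96), dominant-negative Rap1 (-0.88), TNF protease inhibitor-2 (-0.88) and MMPs and ADAMs (-0.87) it was nearer to T4. All 9 stayed above every S1 sample, by 0.55 to 1.10 over the S1 mean. This order depends on the array-type term. In the deposited values PD98059 (-1.79), Tyrphostin AG 1478 (-1.74) and mAb225 (-1.70) were lowest, and LY294002 (-1.41) was level with AIIB2 (-1.39).

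On the probe sets used, OGT (209240_at) was the most variable member across agents. It was highest with mAb225 (0.78), PD98059 (0.51) and Tyrphostin AG 1478 (0.47) and lowest with AIIB2 (-0.61) and dominant-negative Rap1 (-0.22). Those last 2 agents, or 22.2% of the 9, were below the T4 mean. Without the array-type term dominant-negative Rap1 was above T4 by 0.36, so its direction depends on that term. Other OGT probe sets, with the term removed, gave other patterns. On 207563_s_at every agent but mAb225 (8.74) was below the T4 mean of 8.57. On 207564_x_at every agent but AIIB2 (8.54) was above the T4 mean of 8.83, including dominant-negative Rap1 (8.93). On 212307_s_at AIIB2 (8.49), dominant-negative Rap1 (8.57) and MMPs and ADAMs (8.93) were below the T4 mean of 8.97.

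Read on 200899_s_at, OGA was highest with LY294002 (0.48), mAb225 (0.32) and Tyrphostin AG 1478 (0.25), the 3 agents above every T4 sample. It was below the T4 mean with AIIB2 (-0.25) and MMPs and ADAMs (-0.22), also 22.2% of the 9. On this probe set no agent brought OGA into the S1 range. With the same term removed, dominant-negative Rap1 was inside it on 200898_s_at (10.04, with S1 at 9.74 to 10.14). On the dimmer 214972_at, Tyrphostin AG 1478 (7.49), MMPs and ADAMs (7.47) and mAb225 (7.46) were inside it (S1 at 7.37 to 7.58). The agent order also differed on 200898_s_at with the term removed. There LY294002 (9.51), mAb225 (9.48) and Tyrphostin AG 1478 (9.28) were below the T4 mean of 9.59. Only dominant-negative Rap1 (10.04) was above every T4 sample there. In the deposited values of 200899_s_at the order differed as well. AIIB2 was above the T4 mean by 0.11. The lowest OGA value was that of MMPs and ADAMs (9.33), and the highest that of mAb225 (0.68 above T4).

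**Figure D2:**
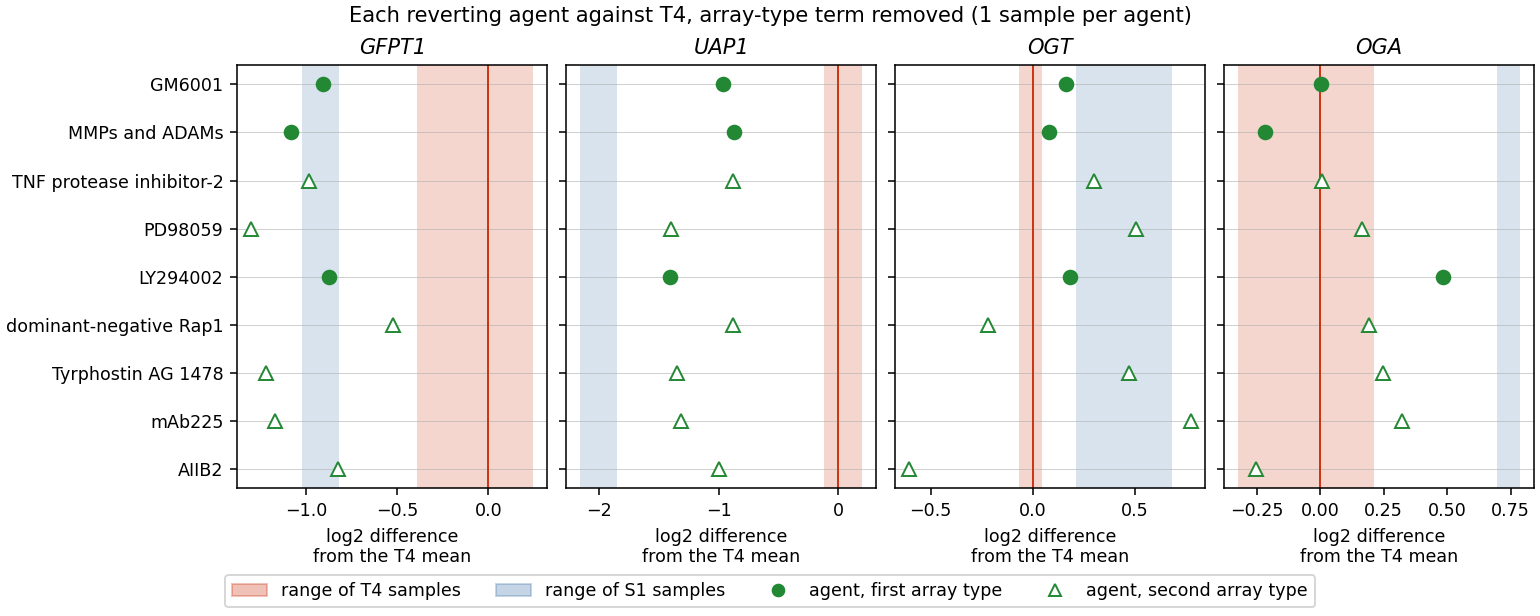
Log2 difference of each agent's sample (1 per agent) from the T4 mean for the 4 members, after removal of the array-type term, with red bands for the range of T4 samples and blue bands for that of S1. GFPT1 points fall in or near the blue band (-1.30 to -0.52), UAP1 points lie between the bands (-1.41 to -0.87), and OGT points spread from -0.61 to 0.78.

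The agents were also grouped by target into 3 classes of 3. The protease class holds TNF protease inhibitor-2, GM6001 and MMPs and ADAMs, the MAPK, PI3K and Rap1 class PD98059, LY294002 and dominant-negative Rap1, and the EGFR and beta1-integrin class the other 3. UAP1 was lower than in T4 in each, by a log2 difference of -0.96 ± 0.16 (adjusted p = 0.00318), -1.34 ± 0.17 (adjusted p = 0.00123) and -1.38 ± 0.20 (adjusted p = 0.00302) in that order. GFPT1 differed by -1.01 ± 0.21 (adjusted p = 0.0121), -0.93 ± 0.24 (adjusted p = 0.0327) and -1.11 ± 0.27 (adjusted p = 0.0344). Called lower were 6.22%, 5.37% and 3.62% of tested genes, and of the members GFPT1 and UAP1 in every class.

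These GFPT1 calls rested on few samples. The protease call ended without MMPs and ADAMs (-0.96, adjusted p = 0.0688). The call of the MAPK, PI3K and Rap1 class ended on leaving out any S1 sample, T4 sample 1 or 2, MMPs and ADAMs, TNF protease inhibitor-2 or LY294002, with adjusted p of 0.0514 to 0.105. That of the EGFR and beta1-integrin class ended on leaving out any of these, GM6001, Tyrphostin AG 1478 or mAb225, with adjusted p of 0.0532 to 0.0961. With samples 1 and 2 of each line averaged, all 3 ended (adjusted p of 0.0652 to 0.116). UAP1 kept its calls in all 27 alternatives for each class.

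Whether the classes differ from each other was tested with limma's moderated F-test. No member passed, with adjusted p of 0.903 for UAP1, 0.96 for GFPT1, 0.995 for OGT and 0.903 for OGA. Of all 9111 genes 0 passed, a share of 0%, and 496 had an unadjusted p under 0.05. UAP1 was nearest to that mark, at an unadjusted p of 0.0531.

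The 2 probe sets of GFPT1 moved alike. The other GFPT1 probe set, 202721_s_at, read 7.92, 7.81 and 7.73 in S1, 8.99, 8.91 and 8.36 in T4 and 7.33 to 8.04 in T4R. It differed by 0.88 ± 0.19 between T4 and S1 (adjusted p = 0.00391 over 14780 probe sets) and by -1.03 ± 0.17 between T4R and T4 (adjusted p = 0.00195). UAP1 has 1 probe set, 209340_at, so its result has no second reading.

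OGA was less even. Its probe set 200898_s_at differed from S1 by -0.36 ± 0.19 in T4 (adjusted p = 0.213) and by -0.53 ± 0.16 in T4R (adjusted p = 0.0317), and the dimmer 214972_at by -0.15 ± 0.12 (adjusted p = 0.445) and -0.17 ± 0.10 (adjusted p = 0.288). So the fall of OGA in T4 rests on 200899_s_at, the probe set used, with the same sign in the others. Between T4R and T4 the signs were split, with 200898_s_at at -0.18, 214972_at at -0.024 and 200899_s_at at 0.10, and none passed. Of the 5 OGT probe sets, 4 were tested and none passed in any of these comparisons. Against S1 their T4 differences ran from -0.38 to -0.14. Between T4R and T4, 207563_s_at was at -0.17, whereas 207564_x_at (0.25), 209240_at (0.18) and 212307_s_at (0.11) had the other sign. The remaining one, 220594_at, read 6.69 to 6.93 and was below the lower quartile of 10 samples. The probe sets 207564_x_at and 220594_at are named for OGT in the annotation of the first array type only.

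**Figure D3:**
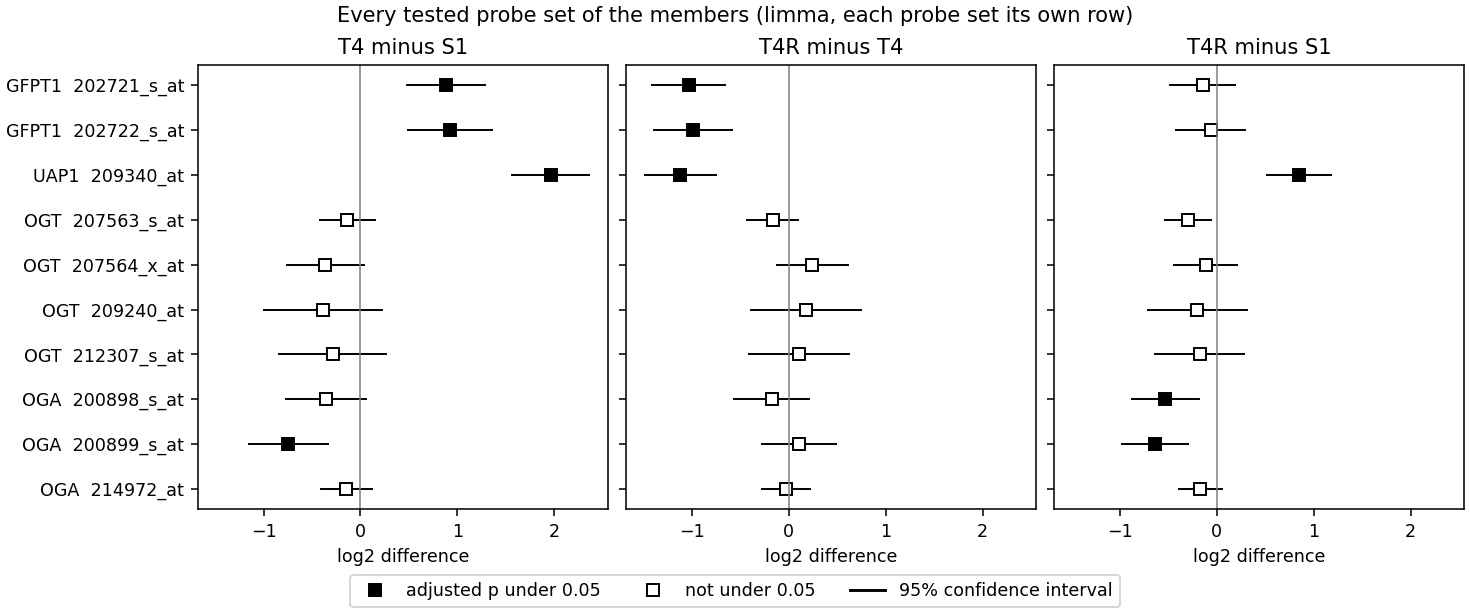
Log2 difference with its 95% confidence interval for the 10 tested probe sets of the members in the 3 group comparisons, filled where limma's adjusted p is under 0.05. Both GFPT1 probe sets are higher in T4 (0.88 and 0.92) and lower in T4R, whereas only 1 of 3 OGA probe sets passes in T4 against S1.

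Over the 15 samples, with the array-type term removed, GFPT1 and UAP1 had a Pearson correlation of 0.72, UAP1 and OGA -0.75, and OGT and OGA 0.54. The points share the same libraries and the same group structure, so these values are descriptive. The tested genes most like GFPT1 were KDELR3 (0.97), TCP11L1 (0.97) and THBS1 (0.96). Those most like UAP1 were CSRP1 (0.96), CDK2AP1 (0.96) and KMT5A (0.95). For OGA they were NIPBL (0.94), EHD2 (0.92) and EEF1D (0.92). OGT had looser partners, SEC14L1P1 (0.89), AMT (0.88) and ENGASE (0.87).

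As a branch of sugar use, the pathway competes with glycolysis for fructose-6-phosphate, so transporters, hexokinases and phosphofructokinases were read beside the members. Of 11 tested genes on this list, 6 were higher and 2 lower in T4 than in S1 (list median 0.64), and 1 was higher and 3 lower in T4R than in T4 (median -0.39). SLC2A3, a glucose transporter, and PFKP, a phosphofructokinase that commits fructose-6-phosphate to glycolysis, rose in T4 by 2.45 ± 0.24 and 2.82 ± 0.29. In T4R both were lower than in T4, at -1.50 ± 0.22 and -2.65 ± 0.27. SLC2A3 stayed above S1 (0.94 ± 0.20, adjusted p = 0.00412), as UAP1 did, whereas PFKP did not pass there (0.16 ± 0.24), nor did GFPT1.

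Not all isoforms moved alike. PFKM, the muscle-type phosphofructokinase, fell in T4 by a log2 difference of -0.96 ± 0.11 and was higher in T4R than in T4 by 0.82 ± 0.10. PFKL, the liver-type enzyme, named after its values were seen, was higher in T4 by 0.64 ± 0.19 (adjusted p = 0.0238), as PFKP was, and did not pass in T4R against T4 (-0.39 ± 0.18). HK1, a hexokinase, had a difference of -1.09 ± 0.15 in T4 and, as with OGA, no difference between T4R and T4 that passed (0.058 ± 0.14, with the sign turned without T4 sample 1 or 2). HK2 (0.71 ± 0.22, adjusted p = 0.0268) and GPI, which makes fructose-6-phosphate (0.96 ± 0.33, adjusted p = 0.042), were called in T4. Another HK2 probe set differed by -0.040 and did not pass (adjusted p = 0.868). The call of HK2 ended without S1 sample 2 (adjusted p = 0.0565), S1 sample 3 (0.0699), T4 sample 1 (0.104) or T4 sample 2 (0.057). That of GPI ended without S1 sample 1 (adjusted p = 0.154), S1 sample 2 (0.161), T4 sample 1 (0.0704), T4 sample 2 (0.109), T4 sample 3 (0.071), GM6001 (0.0541), TNF protease inhibitor-2 (0.053), LY294002 (0.0506) or Tyrphostin AG 1478 (0.0549). SLC2A1 did not pass (-0.42 ± 0.28 in T4, 0.43 ± 0.26 in T4R against T4).

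The other inputs of the branch are glutamine, acetyl-CoA and UTP. Of 5 tested glutamine genes, 1 was higher and 1 lower in T4, and 2 were higher and 1 lower in T4R than in T4 (medians -0.47 and 0.18). GLUL, which makes glutamine, fell in T4 by a log2 difference of -1.92 ± 0.41 (adjusted p = 0.00356), with a T4 spread of 1.24 (SD, n = 3). In T4R it was higher than in T4 by 1.43 ± 0.38 (adjusted p = 0.0223), a call that ended without MMPs and ADAMs (adjusted p = 0.0541) or LY294002 (0.0501). SLC38A2, a glutamine carrier, was lower in T4R than in T4 (-0.67 ± 0.11), and its call in T4 (0.40 ± 0.12, adjusted p = 0.0262) ended on leaving out sample 1 or 2 of S1 (adjusted p = 0.0734 and 0.099) or of T4 (0.0844 and 0.0928). SLC7A5, an amino acid exchanger, was also higher in T4R than in T4, by 1.57 ± 0.32.

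Of 6 genes of acetyl-CoA and UTP supply, 2 were higher in T4 and 1 lower in T4R than in T4 (medians 0.76 and -0.53). UCK2, which salvages uridine, rose in T4 by 1.01 ± 0.23 (adjusted p = 0.00535) and was lower in T4R than in T4, at -0.89 ± 0.21 (adjusted p = 0.0129). ACLY, which makes cytosolic acetyl-CoA, was called in T4 at 1.09 ± 0.37 (adjusted p = 0.0435), and leaving out any of 9 samples ended this (adjusted p up to 0.195, on leaving out S1 sample 2). Of 4 salvage and breakdown genes of amino sugars, 1 was lower in T4 and none passed in T4R against T4 (medians 0.027 and 0.20). It was GNPDA1, a glucosamine-6-phosphate deaminase (-0.80 ± 0.25, adjusted p = 0.0296), whose call ended without S1 sample 1 (adjusted p = 0.114), S1 sample 2 (0.151), T4 sample 1 (0.0572) or T4 sample 3 (0.102).

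Among users of UDP-GlcNAc, 3 of 7 tested N-glycan genes were higher in T4 and 2 lower in T4R than in T4 (medians 0.30 and -0.40). DPAGT1, which starts the lipid-linked N-glycan, was called in T4 at 0.55 ± 0.16 (adjusted p = 0.0197) and was lower in T4R than in T4, at -0.73 ± 0.15. Its call in T4 ended without S1 sample 1 (adjusted p = 0.0857), S1 sample 2 (0.109) or T4 sample 3 (0.0562). MGAT1, which opens N-glycan branching, stood at 0.40 ± 0.11 in T4 (adjusted p = 0.015), or adjusted p = 0.0568 without S1 sample 1, and at -0.56 ± 0.10 in T4R against T4. MGAT2, a branching enzyme, rose in T4 by 0.55 ± 0.11 (adjusted p = 0.00232) and did not pass between T4R and T4 (0.0073 ± 0.10). Another of its probe sets differed by 0.12 in T4 and did not pass (adjusted p = 0.597).

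Of 4 tested genes of sialic acid synthesis, another exit from UDP-GlcNAc, 3 were higher in T4 and 1 lower in T4R than in T4 (medians 0.52 and -0.37). CMAS, which activates sialic acid, rose by 0.57 ± 0.12 (adjusted p = 0.00407). NANS, which makes phosphorylated sialic acid, was called in T4 at 0.82 ± 0.22 (adjusted p = 0.0136), but leaving out T4 sample 3 (adjusted p = 0.0543) or S1 sample 2 (0.0736) ended the call. GNE, which takes UDP-GlcNAc into sialic acid synthesis, was called in T4 at 0.47 ± 0.13 (adjusted p = 0.0181), a call that ended on leaving out sample 1 of S1 (adjusted p = 0.0844) or of T4 (0.07). In T4R it was lower than in T4, at -0.53 ± 0.12 (adjusted p = 0.0116), and without T4 sample 1 this ended too (adjusted p = 0.0537).

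Neighbouring branches of sugar use were counted in the same way. Of 2 tested hyaluronan genes 1 was lower in T4, namely UGDH, which makes UDP-glucuronate (-1.12 ± 0.23). The pentose phosphate list had 1 of 5 higher and the mannose and fucose nucleotide list 0 of 5 called (medians 0.21 and 0.040), and in T4R against T4 neither these nor the hyaluronan list had a called gene (medians 0.26, -0.11 and 0.36). Of 6 glycogen and galactose genes, 1 was higher and 2 lower in T4 (median -0.11), with PYGL, a glycogen phosphorylase, at 2.46 ± 0.27, GYS1, a glycogen synthase, at -0.79 ± 0.13 and GBE1, the glycogen branching enzyme, at -1.05 ± 0.26, a call that ended without S1 sample 2 (adjusted p = 0.0526). In T4R 1 of the 6 was lower than in T4, PYGL at -1.35 ± 0.25 (list median -0.11), and it stayed above S1 by 1.11 ± 0.23 (adjusted p = 0.00318). The called pentose phosphate gene, RPIA, an isomerase, differed by 0.29 ± 0.10 in T4 (adjusted p = 0.0416), and its call ended on leaving out any of 8 samples (adjusted p up to 0.208, on leaving out S1 sample 1).

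Genes of the unfolded protein response were read because factors of that response are known to act on GFPT1. Of 15 tested, 5 were higher in T4 and 5 lower in T4R than in T4 (medians 0.44 and -0.48). CALR, a chaperone, stood at 0.72 ± 0.12 and -0.57 ± 0.11, and 2 of its 4 other probe sets passed in each comparison. Without the array-type term its second call ended (adjusted p = 0.201). XBP1, a transcription factor of the response, stood at 0.90 ± 0.18 and -0.60 ± 0.17, and the second call ended without T4 sample 1 (adjusted p = 0.112), T4 sample 2 (0.0871), GM6001 (0.0799), MMPs and ADAMs (0.0683) or LY294002 (0.0752). MANF, a secreted stress factor, stood at 0.57 ± 0.15 and -0.64 ± 0.14. HSPA5, the main chaperone of the endoplasmic reticulum, stood at 0.50 ± 0.12, which did not pass without S1 sample 2 (adjusted p = 0.0527), and at -0.64 ± 0.11. The differences of GFPT1 on the same log2 scale were 0.92 and -0.99, and a difference between it and these genes was not tested.

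**Figure D4:**
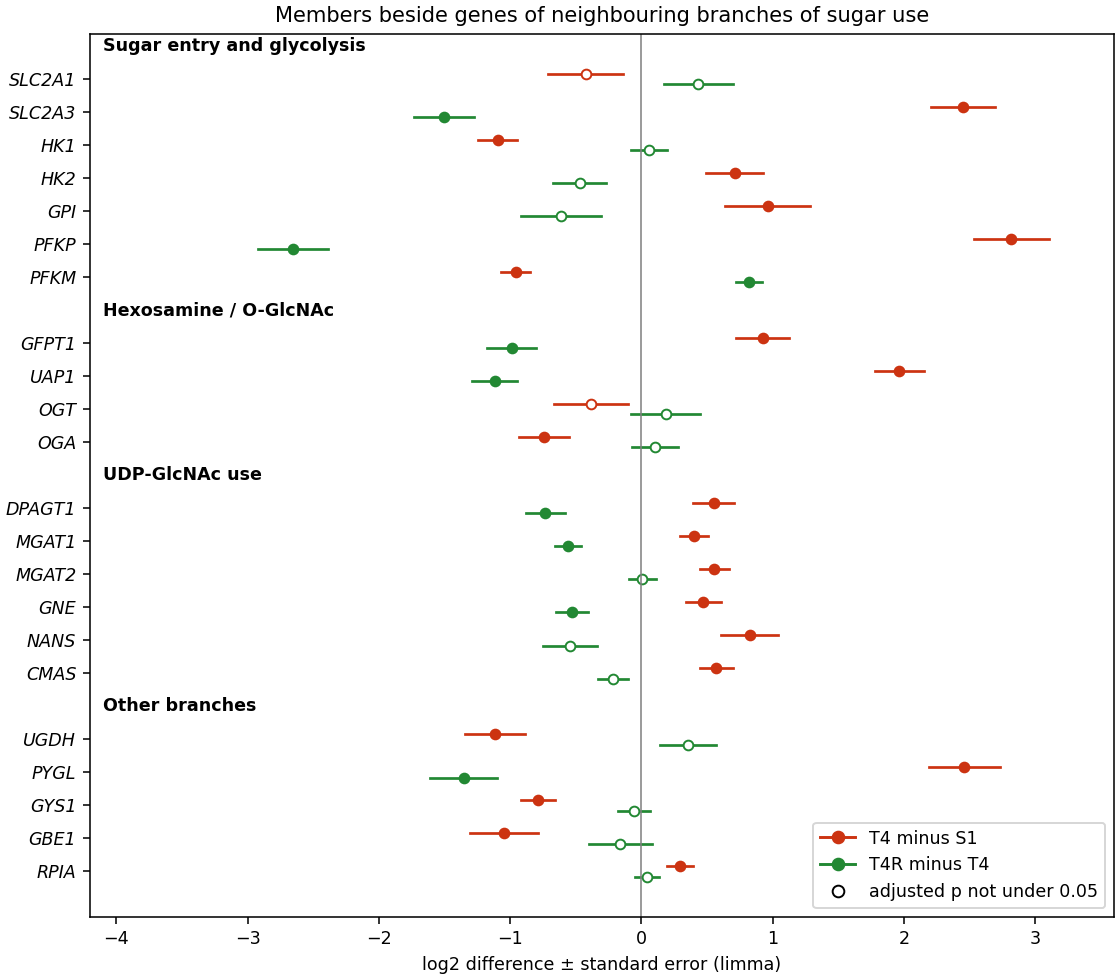
Log2 differences with standard errors (limma) for the 4 members and for genes of sugar entry, UDP-GlcNAc use and other branches, in T4 minus S1 (red) and T4R minus T4 (green), with open points where the adjusted p is not under 0.05. SLC2A3, PFKP, PYGL, UAP1 and GFPT1 are higher in T4 and lower in T4R, and PFKM is the reverse (-0.96 and 0.82).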

How the data were processed

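Total RNA of 15 cell line samples was measured on U133A-type arrays. Per the labels' protocols it was isolated in Trizol and labelled by the manufacturer's standard protocol. The deposited values are log2 expression, as their range shows, in 2 tables of 22215 probe sets. How the authors summarised and normalized them is not given in the sources used. The 2 annotations together gave 1 gene to 19707 probe sets, among them probe sets named in only 1 of the 2. A gene took its probe set with the highest mean, the dimmest 25% of genes by mean were dropped, and the remaining 9111 went into limma 3.58.1 (R 4.3.3; lmFit and eBayes, 2-sided, Benjamini-Hochberg over all genes, threshold 0.05) with the groups and the table as terms. Classes of agents were fitted likewise; dominant-negative Rap1 was placed in its class from knowledge of the study. Single agents have no test. T4R spread also holds the differences between agents. The limma code was checked on simulated data. Figures used matplotlib 3.10.9.

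Members and gene lists were chosen with earlier results of these data known. Named were the members, from each list the called genes with the smallest adjusted p (at most 3 in T4 against S1 and 3 in T4R against T4), 7 genes of the fructose-6-phosphate branch point in any case, and for each member the 3 genes of highest correlation. Same-numbered S1 and T4 samples deviated together (r = 0.19, 0.30 and 0.35 for numbers 1 to 3), so the numbers were treated as pairs in an alternative fit; no label gives a shared batch. Alternatives covered probe set choice, filter, table term, normalization, array weights, averaging and leaving out samples. The number of arrays limits the precision.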

Additional observations from a re-analysis of the deposited data

Results flagged for a closer look

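Dixon's criterion was applied to the 9 agents alone, and S1 and T4, with 3 samples each, were not checked. None of the 4 members had an agent that stood apart from the others by it. Of 36 genes checked over the 9 agents, 4 did, all through dominant-negative Rap1, and chance gives this in about 1 in 20 groups. The values checked were the deposited ones, without removal of the array-type term, so they mix both array types. In the dominant-negative Rap1 sample HK2 was 9.16 against 8.66 in the next agent. NANS, which makes phosphorylated sialic acid, was 8.68 there against 9.24 in the next. KRT18, an epithelial keratin, was 11.57 against 10.85. EPCAM, an epithelial adhesion gene, was 7.51 against 8.21.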

How the results depend on the processing

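UAP1 kept every call in all alternatives (31 in T4 against S1, 28 in each of the other group comparisons), and GFPT1 kept its call in T4R against T4 in all 28. With samples 1 and 2 of each line averaged, 1440 genes were called in T4 against S1. Array weights called 4180 genes there, 3160 in T4R against T4, 3854 in T4R against S1 and 18 between agent classes. The cause was not tested. Members called in T4R against S1 were 1 instead of 2 without the table term, in the first table alone and after quantile normalization across tables. The percent of agents below the T4 mean was 11.1 for OGT and 11.1 for OGA without the table term, and 0 for OGT in the first table. Leaving out single samples gave 0 to 10 genes called between agent classes. Leaving out together dominant-negative Rap1 and sample 3 of both lines, chosen after seeing the data, gave 2. Some signs turned. OGA in T4R against T4 was -0.032 with the mean of probe sets, -0.15 with array weights, -0.058 to 0.23 on leaving out single samples and -0.073 without those 3 samples, against 0.35 without the table term and 0.45 after quantile normalization across tables, where OGT was 0.57 and 0.67. Without the table term 2 single agents also turned against T4: OGT with dominant-negative Rap1, from -0.22 to 0.36, and OGA with AIIB2, from -0.25 to 0.11. GFPT1 in T4R against S1 was 0.019 in the first table, -0.11 to 0.019 on leaving out single samples and 0.019 without those 3. OGT there was 0.034 after quantile normalization across tables. HK1 in T4R against T4 was -0.026 with averaged samples and -0.038 to 0.21 on leaving out single samples. With the replicate block and the table, which rests on pairs 1 and 2, GFPT1 was 0.94, UAP1 1.94, OGT -0.37 and OGA -0.72 in T4 against S1, and 2728 genes were called. The block without the table called 2465 genes. Neither changed a member's call.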
